A study of Danio rerio with 6 samples.

Results

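The genes described here encode carbonyl, aldehyde and steroid oxidoreductases. They were chosen by name from the deposited table of the zebrafish RNA-seq experiment, as all genes whose symbol begins with aldh (aldehyde dehydrogenases), akr (aldo-keto reductases), cbr (carbonyl reductases), adh and a digit (alcohol dehydrogenases), dhrs (dehydrogenase/reductase members of the short-chain dehydrogenase/reductase, or SDR, superfamily) or hsd and a digit (hydroxysteroid dehydrogenases), with a mean normalized read count of at least 10 over the libraries. Of the 21317 genes in the table, 64 had such a name. The retinoic acid genes aldh1a2, aldh1a3, dhrs3a and dhrs3b were left out, and the remaining 60 genes all passed the minimum. They comprised 19 aldh, 16 dhrs, 15 hsd, 5 akr, 3 cbr and 2 adh genes.

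RNA came from 72 hpf (hours post-fertilization) zebrafish embryos of the strain Tg(c-mybhyper:GFP), which carries a hyperactive c-myb transgene and is used as a model of expanded myelopoiesis. One group was kept in 60 µM Tan I (tanshinone I, a diterpene of Salvia miltiorrhiza with an ortho-quinone ring) and the other in its solvent DMSO. There were 3 libraries in each group, and both groups carried the transgene. A start at 30 hpf is given by the study for the treated embryos of this strain that it imaged. The methods of the RNA-seq name no start, so 30 hpf is assumed here. How many embryos entered a library was not stated, and nothing stated that the libraries came from separate clutches, so p-values measure the spread between these libraries. The labels name the tissue as embryonic cells, whereas the methods describe collected embryos, and marker genes of muscle, liver and intestine were all present in the table.

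These enzymes move hydride between a nicotinamide cofactor and the carbonyl group of a substrate. Aldo-keto and carbonyl reductases use NADPH to reduce aldehydes, ketones and quinones to alcohols or hydroquinones, and are counted among the enzymes with which cells clear reactive carbonyls. Aldehyde dehydrogenases run in the opposite sense and oxidize aldehydes to acids, and many of them serve single steps of amino acid, folate or lipid metabolism. Alcohol dehydrogenases and the dhrs enzymes work in either sense, and hydroxysteroid dehydrogenases set whether a steroid hormone is in its active or inactive form. In mammals, several members of these families are induced through the aryl hydrocarbon receptor (AhR) or through Nrf2, a transcription factor that responds to electrophiles.

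Each value given here is a normalized count, that is, the reads of a gene after division by the size factor of its library. The reads behind them summed to between 20451593 and 24932190 in the Tan I libraries and between 15874701 and 16959503 in the DMSO libraries, so each Tan I library was deeper. On the first principal component over all tested genes, which held 37.2% of the variance, Tan I replicate 3 lay nearer to the DMSO libraries than the other Tan I libraries. Fold changes are on the scale log2(normalized count + 1) from limma, with Benjamini-Hochberg adjustment over all 20836 genes tested, and errors of fold changes are standard errors (SE). The exposure was visible in cyp1a, the AhR-driven monooxygenase gene, with 21051, 25031 and 29308 normalized counts in Tan I, against 849.6, 482 and 366 in DMSO.

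Tan I raised 7 of the 60 oxidoreductase genes at a limma adjusted p under 0.05, and none of the 60 was lower at that threshold, in limma, edgeR or DESeq2. At an unadjusted p under 0.05 in limma, 12 were higher and 4 lower, so 16 of the 60, against 3182 of the 20836 tested genes. The 7 were the dhrs genes dhrs13l1, dhrs1 and dhrs13a.1, the carbonyl reductase gene cbr1l, the aldehyde reductase gene akr1a1a, the steroid dehydrogenase gene hsd20b2 and the folate enzyme gene aldh1l1. These 7 genes were 11.7% of the members, whereas 2.57% of all tested genes were called, 2.07% as higher and 0.504% as lower. One of the 7, dhrs13l1, changed by more than 2-fold. All Tan I values lay above all DMSO values for 18 members (30.0%, against 10.7% of all tested genes), and all lay below for 5 members (8.33%, against 10.4% of all tested genes). The median log2 fold change of the 60 was 0.05, beside -0.01 over all tested genes, with 37 members above 0 and 23 below. The study, which used DESeq2, states a p value no higher than 0.05 and a log2 fold change of 0.25 or more in either direction. These thresholds were applied here to the unadjusted p and the fold change of limma, so the counts are not those of the study. In this form 13 members (21.7%) passed, against 11.3% of all tested genes. As the RNA is from whole embryos, a change in the number of cells of a type and a change in RNA per cell cannot be told apart for any of these genes.

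**Figure D1:**
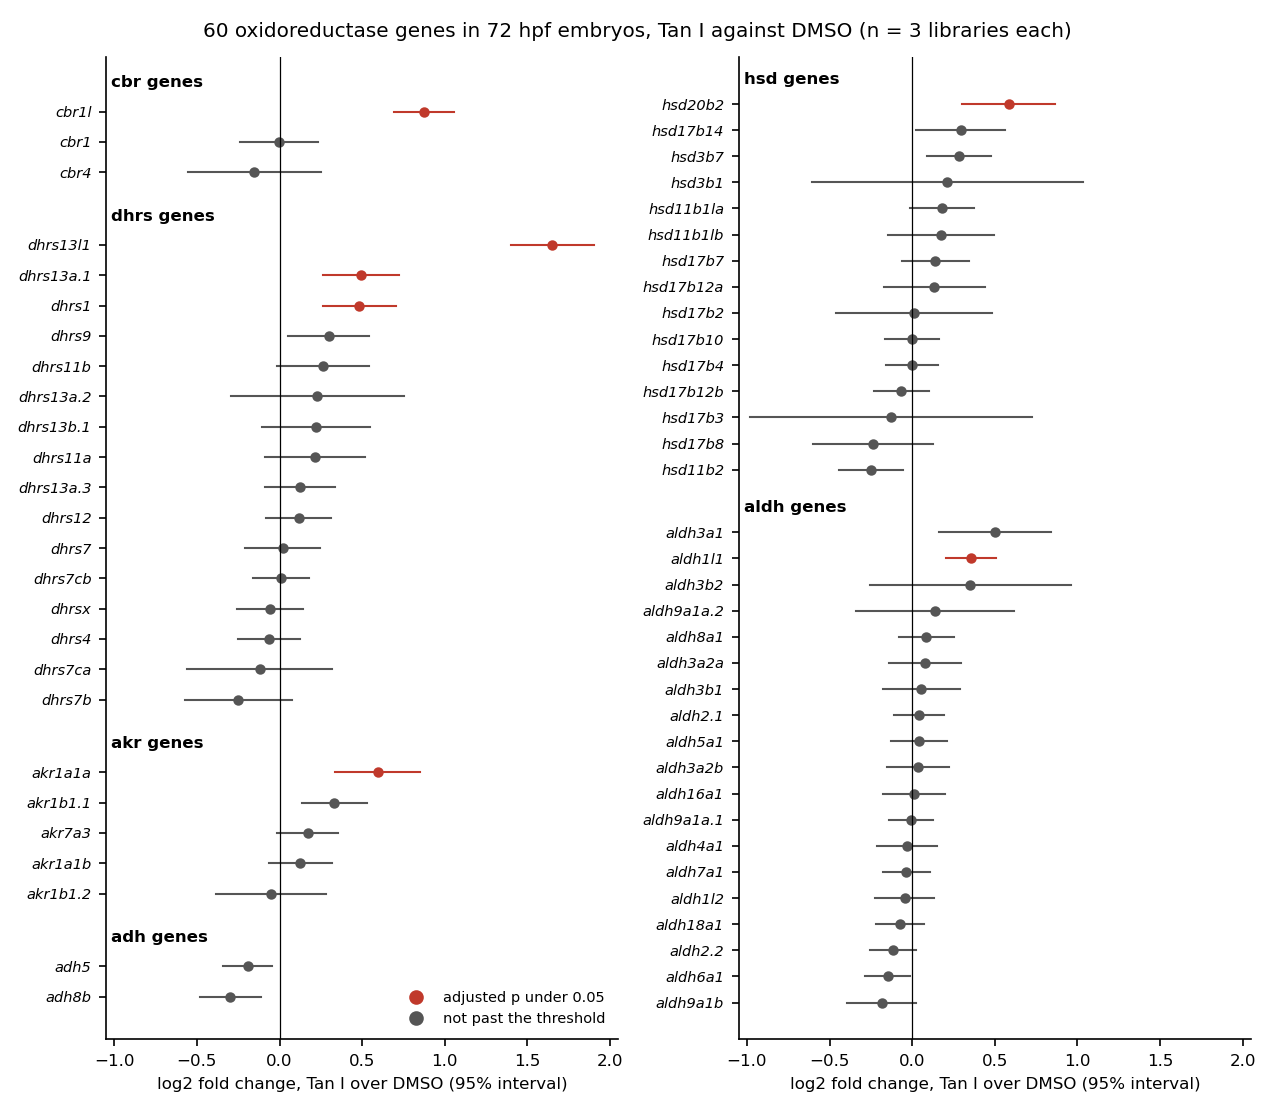
Log2 fold change of Tan I over DMSO (horizontal axis, with 95% confidence intervals from limma) for each of the 60 genes, grouped by name family; red marks an adjusted p under 0.05. The 7 red genes all lie to the right of 0, from 0.36 for aldh1l1 to 1.65 for dhrs13l1, and both adh genes lie to the left.

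The largest change of any member was that of dhrs13l1 (ENSDARG00000098746), a member of the SDR superfamily for which no substrate is given here. Its normalized counts were 835, 1034 and 875 in Tan I replicates 1 to 3, against 329, 245 and 299 in DMSO replicates 1 to 3. Every Tan I library thus held far more than the highest DMSO library. The mean was 914 ± 105 in Tan I and 291 ± 42.6 in DMSO (SD, n = 3 each), a 3.14-fold ratio and 1.65 ± 0.12 in log2 fold change (SE, adjusted p 4.31e-06 by limma). The call held in each of the 18 alternative analyses, with log2 fold changes between 1.53 and 1.79.

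The second largest was that of cbr1l (ENSDARG00000021149), which is named for its likeness to carbonyl reductase 1, an NADPH enzyme that in humans reduces quinones, prostaglandins and anthracycline drugs. It had 1675, 1543 and 1655 normalized counts in Tan I, against 897, 789 and 978 in DMSO, and the groups were well apart. The mean was 1624 ± 71.2 in Tan I and 888 ± 94.5 in DMSO (SD, n = 3 each), 1.83-fold, with 0.88 ± 0.08 in log2 fold change (SE, adjusted p 6.26e-05 by limma). This call, too, held in all 18 alternatives. For its name partner cbr1 (ENSDARG00000036587) the counts overlapped, at 312, 364 and 389.7 in Tan I, against 324, 363 and 379 in DMSO, with a log2 fold change that rounds to 0 and a 95% interval of -0.24 to 0.23. The third gene of the family, cbr4, whose human product reduces keto groups in mitochondrial fatty acid synthesis, had a log2 fold change of -0.15 with an interval of -0.56 to 0.25.

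Of the other dhrs genes, dhrs1 (ENSDARG00000054300) and dhrs13a.1 (ENSDARG00000026322) were past the threshold. With dhrs13l1, 3 of the 16 dhrs genes were called higher, against 2.07% of all tested genes. The normalized counts of dhrs1 were 768, 915 and 940.4 in Tan I, against 624, 555 and 699.6 in DMSO, and limma gave 0.48 ± 0.10 (log2 fold change ± SE, adjusted p 0.0252). Those of dhrs13a.1 were 279.8, 307 and 306 in Tan I, against 201, 232 and 201 in DMSO, with 0.49 ± 0.11 in log2 fold change (SE, adjusted p 0.0277 by limma). Neither gene overlapped between the groups. The gene dhrs9, in humans a retinol and steroid dehydrogenase, did not overlap either, with 312, 311 and 299 in Tan I against 258, 215 and 281 in DMSO, but it missed the threshold (log2 fold change 0.30, limma adjusted p 0.226). The 13 dhrs genes that were not called ran from -0.25 to 0.30 on the log2 fold change scale. Among them was dhrs7cb, in mammals a gene of striated muscle, at 0.01 with an interval of -0.16 to 0.18.

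The dhrs13 name group has 5 members in the table, with unequal values. Beside dhrs13l1 (1.65) and dhrs13a.1 (0.49), the log2 fold changes were 0.23 for dhrs13a.2, 0.22 for dhrs13b.1 and 0.12 for dhrs13a.3, and the last 3 were not past the threshold. Replicate 3 of dhrs13a.2 was low in both groups, with 614, 541 and 351 normalized counts in Tan I replicates 1 to 3, against 536, 511 and 265 in DMSO replicates 1 to 3. In the RefSeq gene order of the assembly GRCz12tu, dhrs13a.1 and dhrs13a.2 are direct neighbours. Reads that mapped to more than 1 place had been removed, so copies of like sequence can lose reads, and the values of both genes are uncertain to that extent. The sequences of the copies were not compared.

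**Figure D2:**
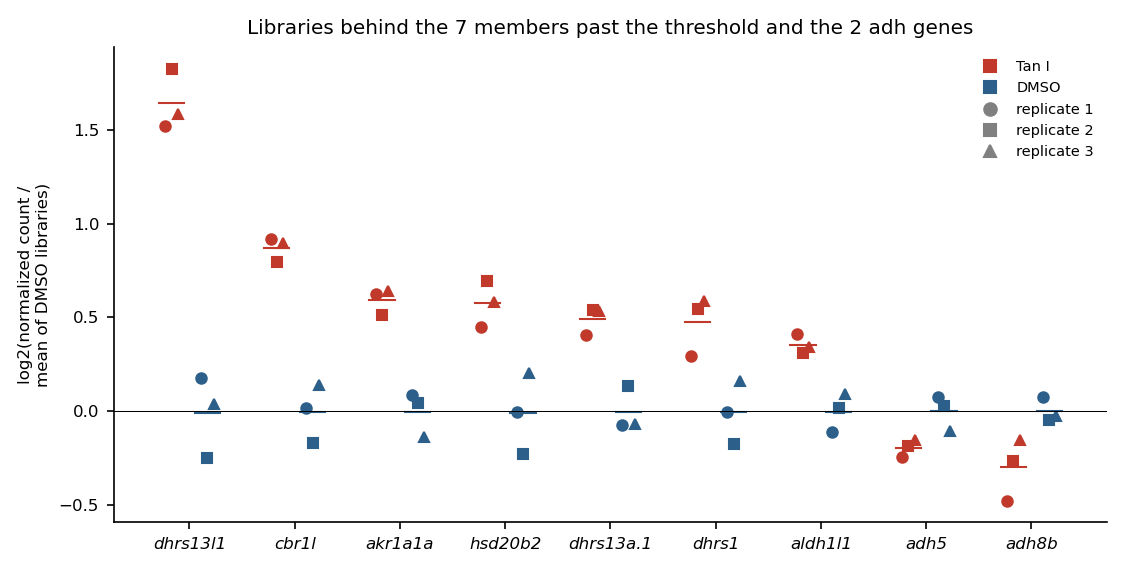
Each point is 1 library, as log2 of its normalized count over the mean of the DMSO libraries (vertical axis), for the 7 genes past the threshold and both adh genes; Tan I is in red and DMSO in blue, symbols mark the replicate number and lines the group means. The Tan I points of dhrs13l1 stand far above its DMSO points. Among the 7 genes those of dhrs1 come nearest to theirs, and those of adh5 and adh8b lie below theirs without overlap.

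Among the 15 hydroxysteroid dehydrogenase genes, 1 was past the threshold, while 2.07% of all tested genes were called higher. This was hsd20b2 (ENSDARG00000031336). In zebrafish its enzyme reduces cortisone, the inactive form of the stress steroid cortisol, to a product that is excreted. It had 237, 282 and 261 normalized counts in Tan I, against 173, 148 and 200.2 in DMSO, which did not overlap. Limma gave 0.58 ± 0.13 (log2 fold change ± SE, adjusted p 0.0329). The gene one step before it, hsd11b2, whose enzyme turns cortisol into cortisone, was lower in each Tan I library without passing the threshold. Its counts were 400.3, 386 and 379 in Tan I, against 423, 469.9 and 494 in DMSO, all 3 below, with a log2 fold change of -0.25 and an interval of -0.44 to -0.05 (limma adjusted p 0.202).

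The genes of steroid hormone synthesis within the family were too weak to follow. For hsd3b1, which is needed for all steroid hormones, the counts were 15.5, 29.0 and 19.8 in Tan I, against 31.2, 14.6 and 12.2 in DMSO, with an interval of the log2 fold change of -0.61 to 1.03. For hsd17b3, which in mammals makes testosterone, they were 18.7, 10.3 and 7.74 in Tan I, against 10.4, 15.8 and 12.2 in DMSO, with an interval of -0.98 to 0.73. These genes were the weakest of the 60 members, with as few as 9 reads in a library for hsd17b3 and 11 for hsd3b1, and their intervals reached past 0.5 on each side of 0, so that a change of that size in either direction was compatible with their values.

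Most of the other hsd genes are known for sterol, bile acid and fatty acid steps rather than hormones. The bile acid synthesis gene hsd3b7 had 518, 492 and 521 normalized counts in Tan I, against 398, 401 and 462 in DMSO, without overlap. Its log2 fold change of 0.28 ± 0.09 (SE) did not pass the threshold (limma adjusted p 0.140). The Tan I values of hsd17b14, hsd11b1la and the cholesterol synthesis gene hsd17b7 also lay above all DMSO values. Their log2 fold changes were 0.29, 0.18 and 0.14, with limma adjusted p between 0.281 and 0.518. In all, 5 of the 15 hsd genes had all Tan I values above all DMSO values and 1 had all below. The shares over all tested genes were 10.7% and 10.4%. By contrast, the peroxisomal beta-oxidation gene hsd17b4 had 1216, 1286 and 1173 in Tan I, against 1276, 1252 and 1150.0 in DMSO, and its interval of -0.16 to 0.16 was among the narrower of the family. The fatty acid elongation gene hsd17b12b was likewise narrow, at -0.07 with an interval of -0.23 to 0.10. For hsd17b8 the values overlapped, with a log2 fold change of -0.24 and an interval of -0.60 to 0.13.

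Of the 5 aldo-keto reductase genes, 4 had each Tan I value above each DMSO value, as did 10.7% of all tested genes. Of all tested genes, 2.07% were called higher, and in this family 1 gene was past the threshold. This was akr1a1a (ENSDARG00000035257), one of a pair of zebrafish genes for the NADPH aldehyde reductase that in mice takes part in ascorbate synthesis. It had 227, 209.7 and 229.7 normalized counts in Tan I, against 156, 152 and 133 in DMSO, with 0.59 ± 0.12 in log2 fold change (SE, adjusted p 0.0176 by limma). Its partner akr1a1b had 438, 414 and 412 in Tan I, against 369, 382 and 408 in DMSO, which lay close together without overlap, and a log2 fold change of 0.13 (limma adjusted p 0.536).

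The aldose reductase gene akr1b1.1, whose enzyme reduces glucose and lipid aldehydes in mammals, had 843, 777 and 833 normalized counts in Tan I, against 569, 712 and 675 in DMSO. All Tan I values were higher, but the log2 fold change of 0.33 ± 0.09 (SE) missed the threshold (limma adjusted p 0.0853). Its neighbour in the gene order, akr1b1.2, had a log2 fold change of -0.05 with an interval of -0.39 to 0.28, and these copies, too, may have lost reads that mapped to both. For akr7a3, a relative of the mammalian reductase of aflatoxin aldehydes, the counts were 518, 461 and 484 in Tan I, against 449.6, 426 and 422 in DMSO, a log2 fold change of 0.17 (limma adjusted p 0.367).

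Of the 19 aldehyde dehydrogenase genes, 1 was past the threshold, while 2.07% of all tested genes were called higher. This was aldh1l1 (ENSDARG00000077004). Its enzyme is the cytosolic formyl tetrahydrofolate dehydrogenase, which returns formyl folate to tetrahydrofolate with release of carbon dioxide and formation of NADPH. The normalized counts were 2811, 2626 and 2684 in Tan I, against 1959, 2141 and 2251 in DMSO. The groups were apart and the change was small, with means of 2707 ± 94.3 in Tan I and 2117 ± 147 in DMSO (SD, n = 3 each), 1.28-fold, and 0.36 ± 0.07 in log2 fold change (SE, adjusted p 0.0159 by limma). The mitochondrial counterpart aldh1l2 had 541, 584 and 543 in Tan I, against 614, 554 and 555 in DMSO, and its interval of -0.22 to 0.13 lay below the 0.36 of aldh1l1.

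The aldehyde dehydrogenase gene aldh3a1 is, in mammals, a well known AhR target in liver cells and an abundant protein of the cornea. It had 118, 135 and 147 normalized counts in Tan I, against 83.2, 89.9 and 110.1 in DMSO, all higher in Tan I. Its log2 fold change of 0.50 ± 0.16 (SE) was larger than that of aldh1l1 but less certain, and it missed the threshold (limma adjusted p 0.138). It passed only with sample quality weights (adjusted p 0.0461, in a range of 0.0461 to 0.376 over its alternatives). Its change stands beside a log2 fold change of 5.55 for cyp1a.

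The remaining aldehyde dehydrogenases were not past the threshold. The acetaldehyde dehydrogenase genes aldh2.1 and aldh2.2, neighbours in the gene order, had log2 fold changes of 0.04 and -0.12, with intervals of -0.11 to 0.20 and -0.25 to 0.02. The gene aldh9a1a.1, for a carnitine synthesis enzyme, had 7259, 7636 and 7668 normalized counts in Tan I, against 7687, 7558 and 7432 in DMSO. Its log2 fold change was -0.01 with an interval of -0.14 to 0.12. For aldh6a1, a mitochondrial enzyme of valine breakdown, the counts were 4862, 5142 and 4935 in Tan I, against 5729.8, 5512 and 5312 in DMSO. All 3 were lower, at a log2 fold change of -0.15 that missed the threshold (limma adjusted p 0.280), while the kynurenine pathway gene aldh8a1 was higher in all 3 at 0.08 (limma adjusted p 0.650). The 18 aldh genes that were not called ran from -0.18 to 0.50.

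Both alcohol dehydrogenase genes had lower counts in every Tan I library than in any DMSO library, as did 10.4% of all tested genes. Neither passed the threshold, and nothing is read about the family from so few genes. For adh8b (ENSDARG00000024278) the normalized counts were 1364, 1583 and 1710.4 in Tan I, against 2003, 1836 and 1864 in DMSO. Limma gave -0.30 ± 0.08 (log2 fold change ± SE, adjusted p 0.0957), and leaving out Tan I replicate 3, the highest of its group for this gene, made it -0.37 and past the threshold (adjusted p 0.0273). For adh5 (ENSDARG00000080010), whose enzyme clears formaldehyde bound to glutathione, the counts were 2337, 2429.7 and 2485 in Tan I, against 2909, 2819.5 and 2567 in DMSO. Limma gave -0.19 ± 0.07 (log2 fold change ± SE, adjusted p 0.191), with adjusted p between 0.0813 and 0.495 over the alternatives.

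Members past the threshold were set against a gene of the same name group by the ratio of both counts in each library, in which scaling between libraries cancels. The 5 pairs were chosen after the values were seen and each is led by a gene called higher, so the direction of the ratios was fixed by the choice and they are given without a test. The log2 ratio of cbr1l to cbr1 was 2.42, 2.08 and 2.08 in Tan I, against 1.47, 1.12 and 1.36 in DMSO. That of dhrs13l1 to dhrs13b.1 averaged 3.02 ± 0.19 in Tan I and 1.58 ± 0.12 in DMSO (SD, n = 3 each). The ratios of akr1a1a to akr1a1b and of aldh1l1 to aldh1l2 were higher by 0.47 and 0.40 in Tan I. For these 4 pairs the groups did not overlap. As the lead genes already did not overlap by themselves, this separation is no further support for their change. The ratio of dhrs13a.1 to dhrs13a.2 overlapped, with a difference of 0.27.

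**Figure D3:**
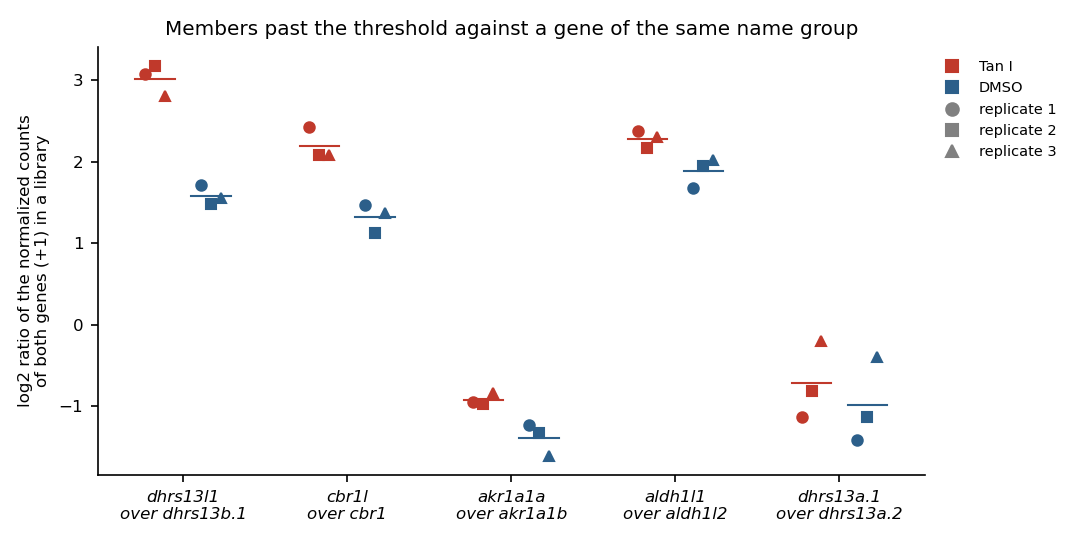
Log2 ratio of the normalized counts of a gene past the threshold to those of a gene of the same name group (vertical axis), with 1 point per library, Tan I in red, DMSO in blue and lines at the group means. The groups are apart for the 4 pairs led by dhrs13l1, cbr1l, akr1a1a and aldh1l1, and overlap for dhrs13a.1 over dhrs13a.2, where replicate 3 is highest in both groups.

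By the steps their enzymes are known for, the 60 genes fall into unequal groups, which were formed after the values were seen and are given as a description. Beside their counts stand the shares over all tested genes, of which 2.07% were called higher and 10.7% had all Tan I values above all DMSO values, and nothing is read from a count of 0 or 1 in so few genes. Of the 7 NADPH carbonyl reductases (the akr genes with cbr1 and cbr1l), 2 were called higher, 5 had all Tan I values above all DMSO values, and the median log2 fold change was 0.17. The remaining cbr gene, cbr4 (-0.15, with overlapping values), was placed with the fatty acid steps and is not counted in this group. The dhrs genes, dhrs4 (-0.06, with overlapping values) among them, were placed with the SDR genes of other or open role. The counts of the reductase group therefore depend on where such genes were placed. Of the 19 SDR genes of other or open role, 3 were called higher, and the median was 0.18. Of the 5 genes acting on steroid hormones, hsd20b2 was the called one, and the median was 0.01. That median is the value of hsd17b2, whose interval was -0.46 to 0.48. The genes hsd17b14 (0.29), hsd11b1la (0.18) and hsd11b1lb (0.17) were placed with the SDR genes of other or open role. The values of the steroid hormone group thus also depend on placement. In the 10 genes of amino acid breakdown, proline synthesis and carnitine synthesis, no gene was called and the log2 fold changes ran from -0.18 to 0.14. The 7 genes of sterol, bile acid and fatty acid steps ran from -0.24 to 0.28 and the 7 of small and fatty aldehydes from -0.12 to 0.50, again with no gene called in the limma fit. Of the 53 members not called, 37 had a 95% interval within 0.5 of 0 on the log2 scale, and for the other 16 the interval reached 0.5 on at least 1 side and so allowed a change of that size.

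**Figure D4:**
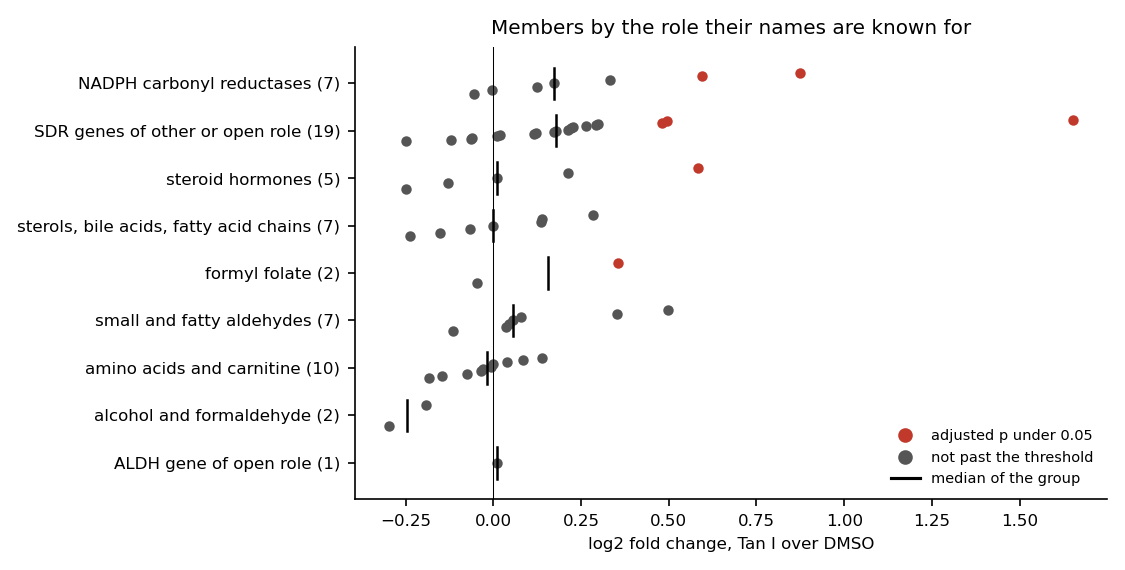
Log2 fold change of Tan I over DMSO (horizontal axis) of each of the 60 genes, in rows by the step the enzyme is known for, with the number of genes in brackets; red marks an adjusted p under 0.05 and vertical lines the medians. The red genes lie in the reductase, SDR, steroid hormone and folate rows, and the 10 amino acid and carnitine genes stay between -0.18 and 0.14.

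Genes of related function outside the name rule were compared in the same fit, in which 2.07% of all tested genes were higher and 0.504% lower. Of 30 tested SDR genes with other names, such as the retinol dehydrogenases, 1 was higher and 0 were lower in limma, edgeR and DESeq2 alike (5 and 3 at an unadjusted p under 0.05 in limma), and the median log2 fold change was 0.03. The one was htatip2, an SDR gene with 402, 375 and 451 normalized counts in Tan I, against 273, 290.2 and 246 in DMSO (log2 fold change 0.60 ± 0.11 SE, limma adjusted p 0.00771). Of 22 tested carbonyl, quinone and flavin oxidoreductases from other families, 3 were higher and 0 lower with each of the 3 tools (5 and 2 at an unadjusted p under 0.05 in limma), with a median of 0.06. These were the aldehyde oxidase gene aox5 (0.60), the ubiquinone reductase gene aifm2 (0.55) and the biliverdin and flavin reductase gene blvrb (0.86), with limma adjusted p of 0.0012, 0.00202 and 0.00777. Without the mean-variance trend htatip2, aox5, aifm2 and blvrb lost the call, with adjusted p up to 0.0763, and blvrb also lost it without Tan I replicate 2 (0.0536). The quinone reductase gene nqo1, named after its values were seen, had 1183, 948 and 1085 in Tan I, against 807, 856 and 925 in DMSO, all higher, but it missed the threshold (log2 fold change 0.31, limma adjusted p 0.106). Of 17 tested genes of steroid synthesis outside the hsd family, 0 were called by limma in either direction and 2 had an unadjusted p under 0.05, with 0 in edgeR and in DESeq2, and the median was 0.10.

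Genes known as AhR and Nrf2 targets were set beside the oxidoreductases without a test of the difference. This list was chosen with earlier results of these data known, so its counts are a description only. Of all tested genes, 2.07% were called higher and 0.504% lower in limma, and 3182 of 20836 had an unadjusted p under 0.05. Of the 15 listed genes tested, 11 were higher and 0 lower with each tool (13 and 0 at an unadjusted p under 0.05 in limma). Their log2 fold changes started at 0.15 with a median of 1.13. The AhR-driven gene cyp1c2 had 1012, 1104 and 986 normalized counts in Tan I, against 148, 132 and 113 in DMSO (log2 fold change 2.97). The glutathione transferase gene gstp1 had 11498, 10099 and 10603 in Tan I, against 4517, 4352 and 4541 in DMSO (log2 fold change 1.26). Among the 60 members, dhrs13l1 alone exceeded the fold change of gstp1.

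Many of these enzymes are abundant in liver and intestine, and some markers of both tissues differed between the groups. In the limma fit 2.07% of all tested genes were higher and 0.504% lower, and 3182 of 20836 had an unadjusted p under 0.05. Of 15 tested liver markers, 3 were lower (tfa, serpina1l and serpina1, at -0.73, -0.39 and -0.34) and 0 higher in limma (6 and 1 at an unadjusted p under 0.05, 3 and 0 in edgeR, 4 and 0 in DESeq2), with a median of -0.18. Without Tan I replicate 2, without DMSO replicate 2 and without the trend, serpina1l and serpina1 lost the call (adjusted p up to 0.171), and serpina1 also without DMSO replicate 3. The summed normalized counts of the 15 liver markers were 100273 to 113995 in Tan I and 117065 to 123626 in DMSO, lower in every Tan I library. Within these sums tfa alone had a mean of 14840 in Tan I and 24476 in DMSO, so much of the difference in the sums lay in that gene. Of 9 intestinal markers, anpepb (0.86) and slc15a1b (0.69) were higher and fabp6 (-0.62) was lower in limma and edgeR, while DESeq2 called 4 higher and 1 lower, and 5 were higher and 1 lower at an unadjusted p under 0.05 in limma. Without the trend fabp6 and slc15a1b lost the call (adjusted p up to 0.0893), and slc15a1b also without DMSO replicate 2 (0.0510). The intestinal median was 0.26, with sums of 23426 to 26358 in Tan I and 20333 to 22191 in DMSO, higher in every Tan I library. Limma called no gene among 5 interrenal (the steroid-producing tissue), 6 pronephros and 9 muscle markers (0, 2 and 0 at an unadjusted p under 0.05, 0, 0 and 0 in edgeR, 0, 1 and 0 in DESeq2), whose medians were 0.28, 0.22 and 0.01. Summed counts were 275 to 320.2 in Tan I and 247 to 278 in DMSO for interrenal, 3586 to 4193 in Tan I and 3339 to 3727 in DMSO for pronephros, and 703835 to 857959 in Tan I and 744616 to 851104 in DMSO for muscle markers. No tested marker was at 0 in any library, and their part in the changes of the oxidoreductase genes was not tested.

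The calls held unequally across the alternative analyses, and fits that leave out a library also have fewer values from which to estimate the error. In all 18 alternatives dhrs13l1 and cbr1l were called. The other 5 lost the call in 4 (aldh1l1), 5 (akr1a1a and dhrs1) or 6 (hsd20b2 and dhrs13a.1) of the 18, always with the fold change in the same direction. All 5 lost it without the mean-variance trend of limma, without Tan I replicate 2 and without DMSO replicate 2, with adjusted p up to 0.181. Removal of Tan I replicate 1 ended the call of akr1a1a and hsd20b2, and that of Tan I replicate 3 the calls of hsd20b2, dhrs1 and dhrs13a.1. Removal of DMSO replicate 1 ended the calls of hsd20b2, dhrs1, dhrs13a.1 and aldh1l1, and that of DMSO replicate 3 the calls of akr1a1a and dhrs13a.1. Without DMSO replicate 2 or without Tan I replicate 2, dhrs13l1 and cbr1l were the 2 members still called, and without DMSO replicate 1 there were 3. The share of all tested genes that was called was 1.02%, 1.24% and 1.96% in these fits, beside 2.57% with all libraries. Without Tan I replicate 1, without Tan I replicate 3 and without DMSO replicate 3 the count was 5 each, with 1.58%, 3.4% and 1.83% of all tested genes called, and adh8b was among the 5 called without Tan I replicate 3.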

How the data were processed

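Paired-end RNA-seq reads of 6 libraries (3 Tan I, 3 DMSO) were aligned by the authors to GRCz11 with STAR, reads mapping to more than 1 place were removed, and reads per gene were counted with featureCounts. Versions and the use of strand are not given in the sources used here, so genes that overlap others are uncertain. The deposited signal values are these counts divided by 1 size factor per library (DESeq2), with their mean. The authors' log2 fold change, its standard error, test score and p-value columns, also deposited, hold their own comparison and were not used. All values in each library were whole multiples of the value of 1 read within 0.001 reads (100% of values), which gave back read counts for the count tests.

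Genes with a mean of at least 10 (20836; 481 left out) were tested on log2(value + 1) without covariates with limma 3.58.1 (lmFit, eBayes with trend) in R 4.3.3, two-sided, with Benjamini-Hochberg adjustment. The + 1 understates changes of weak genes. Intervals are 95%. Named were all called members, per family the 2 of smallest p and the 2 of highest mean, members apart by at least 0.5, and up to 3 called genes of each related list, with cyp1a and gstp1. Further members were named after their values were seen. The members and lists were chosen with earlier results of these data known. Alternatives were pseudocounts 0.1 and 10, no filter, a mean of at least 100, TMM and upper-quartile scaling, no trend, sample quality weights, edgeR 4.0.16 and DESeq2 1.42.0 on the recovered reads, the replicate block, and leaving out each library; thinning reads to the smallest library was added after the depths were seen. Tests were tried on simulated data. All 60 gene IDs matched the gene name table, and 58 were placed in RefSeq gene order (GRCz12tu), used for neighbours only.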

Additional observations from a re-analysis of the deposited data

How the results depend on the processing

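The 7 called members (of 60) numbered 7 to 8 under both pseudocounts, both filters, TMM and upper-quartile scaling, sample quality weights, edgeR, DESeq2 and thinning of reads. Without the mean-variance trend 2 were called, when 0.792% of all tested genes were, and 9 instead of 15 genes of the related lists. Leaving out 1 library gave 2 to 5 called members and 14 to 17 genes of the related lists. The cause was not tested. With the replicate block, 9 members were called (8 higher, 1 lower), with akr1b1.1 and adh8b added (adjusted p 0.0307 each), 19 genes of the related lists, nqo1 among them, and 1093 of all tested genes. Across genes, the correlation between Tan I and DMSO libraries of one number, after removal of the group mean, was 0.081, -0.029 and 0.21 for numbers 1 to 3. Numbers 1 and 3 of Tan I correlated best with their own number in DMSO and number 2 did not (-0.029, against 0.10 with DMSO 1). The second principal component (21.3% of the variance) was 7.52, 2.32 and -17.6 in Tan I and 26.6, 2.39 and -21.2 in DMSO for numbers 1 to 3. It thus fell from number 1 to number 3 in the same order in both groups. As not every correlation was over 0.1 and the labels name no shared clutch or day, the numbers were not used as pairs, and a shared source of same-numbered libraries was not tested further. The alternatives were followed gene by gene for 36 of the 60 members. Some of these changed sign without being called. Not all of them were near 0 in the main fit (0.23 for dhrs13a.2, 0.21 for hsd3b1 and -0.15 for cbr4). The log2 fold change of aldh9a1a.1 was 0.00248 with quality weights and 6.01e-05 after thinning. The log2 fold change of cbr1 was 0.00326 with TMM, 0.00769 with weights and 0.00451 with edgeR, and the log2 fold change of hsd17b4 was 0.00583 with TMM, 0.00601 with weights, 0.00542 with edgeR and 0.000453 with DESeq2. Across the fits that left out 1 library, the values ran from -0.17 to 0.084 for akr1b1.2, -0.081 to 0.00349 for aldh1l2, -0.022 to 0.018 for aldh9a1a.1, -0.073 to 0.087 for cbr1, -0.30 to 0.00040 for cbr4, -0.10 to 0.47 for dhrs13a.2, -0.026 to 0.057 for dhrs7cb, -0.46 to 0.13 for hsd17b3, -0.046 to 0.030 for hsd17b4 and -0.040 to 0.60 for hsd3b1. Depth limits the weakest genes: 11 of the 60 had under 100 reads in some library. Intervals cover the spread between libraries only.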

Other observations

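The gene dhrs13a.2 had its lowest value in replicate 3 of each group (351 normalized counts in Tan I, 265 in DMSO), with 541 and 614 in the other Tan I libraries and 511 and 536 in the other DMSO libraries.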
